A study of Homo sapiens with 6 samples.

Results

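Receptor tyrosine kinases are single-pass membrane proteins that carry growth signals into the cell. A ligand brings receptor chains together, the kinase domains phosphorylate one another, and adaptor proteins that dock on the phosphotyrosines start the RAS-ERK and PI3K-AKT pathways. In liver, MET answers hepatocyte growth factor during regeneration, FGFR4 with its co-receptor beta-klotho restrains bile acid synthesis, and several of these receptors are drug targets in hepatocellular carcinoma. The mRNAs described here are those of 10 such receptors, namely MET, EGFR, ERBB2, ERBB3, AXL, FGFR1, FGFR2, FGFR3, FGFR4 and EPHA2. They were chosen by name and are 10 of the 58478 genes in the table. Each gene's value is the sum of the expected counts over its Ensembl transcripts in GENCODE release 29.

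The study sequenced 6 libraries labelled as wild-type Huh7, a line from a human hepatocellular carcinoma, grown in serum-supplemented DMEM. Of these, 3 came from cells held at 1% oxygen (hypoxia) and 3 from cells at 21% oxygen (normoxia), both for 24 h. After removal of ribosomal RNA, strand-specific libraries were made and read from both ends. The replicates are labelled biological, but nothing says that they came from separate cultures, so a p-value here measures only how far libraries differ. Libraries are named by their table columns, C4 to C6 for hypoxia and C1 to C3 for normoxia.

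The libraries held 37621426 to 39627686 expected counts in hypoxia and 39658910 to 40794783 in normoxia. All 10 listed hypoxia-inducible control genes rose, with a median log2 change of 2.98. ADM, a vasodilator peptide, rose 44.4-fold and the oxygen sensor EGLN3 rose 20.5-fold. The markers that define hepatocytes went against the label Huh7, so the line is given here only as labelled. Of 10 hepatocyte markers, 7 were under 1 CPM (counts per 1000000 of the scaled library) in both groups, and AFP, APOA1, TTR and GPC3 had 0 counts in all 6 libraries. The summed level of that list was 20.8 to 21.6 CPM in hypoxia and 8.90 to 10.7 CPM in normoxia. Among markers of other cell types, the fibroblast list summed to 58.5 to 67.8 CPM in hypoxia and 72.6 to 75.3 CPM in normoxia, with COL1A2 at 0 in all libraries. Of its 6 genes, 4 were under 1 CPM in both groups. Of the 3 tested, 2 rose and 1 fell, with log2 changes from -0.33 to 1.52 and a median of 1.43. The lower sum in hypoxia thus does not describe most of the tested genes. The endothelial list summed to 5.33 to 6.11 CPM in hypoxia and 11.3 to 12.3 CPM in normoxia, with KDR at 0 in all libraries. The blood cell list summed to 42.9 to 52.2 CPM in hypoxia and 6.70 to 7.13 CPM in normoxia, nearly all from CD68, with PTPRC and MS4A1 at 0 throughout. The epithelial list summed to 398 to 422 CPM in hypoxia and 513 to 530.2 CPM in normoxia, mostly keratin KRT18. Of its 5 genes, 3 were under 1 CPM in both groups. Of the 2 tested, 1 fell (log2 change -0.399) and 1 did not pass (0.165). The part these differences have in the receptor results was not tested. Fewer cells of a type and less RNA per cell cannot be told apart in such bulk libraries.

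Of the 10 receptors, 9 passed the filter on low counts and 8 of those passed edgeR's quasi-likelihood test at an adjusted p under 0.05. AXL, MET, FGFR1 and EGFR rose, and ERBB3, FGFR3, ERBB2 and FGFR4 fell. EPHA2 did not pass and FGFR2 was too low to test. Changes of this kind were the rule in these cells: 72.8% of the 17396 genes tested passed, with 36.5% higher and 36.3% lower in hypoxia. A share of 88.9% among 9 receptors is not far above that background. Among protein-coding genes 77.7% passed. In 8 of the 9 tested receptors the CPM ranges of the groups did not overlap, which held for 75.7% of all genes. The receptors' median log2 change was -0.02, against 0.03 over all genes tested. A change of at least 2-fold was seen in 3 of the 9, against 28.8% of all genes. AXL rose past that size, and ERBB3 and FGFR3 fell past it.

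**Figure D1:**
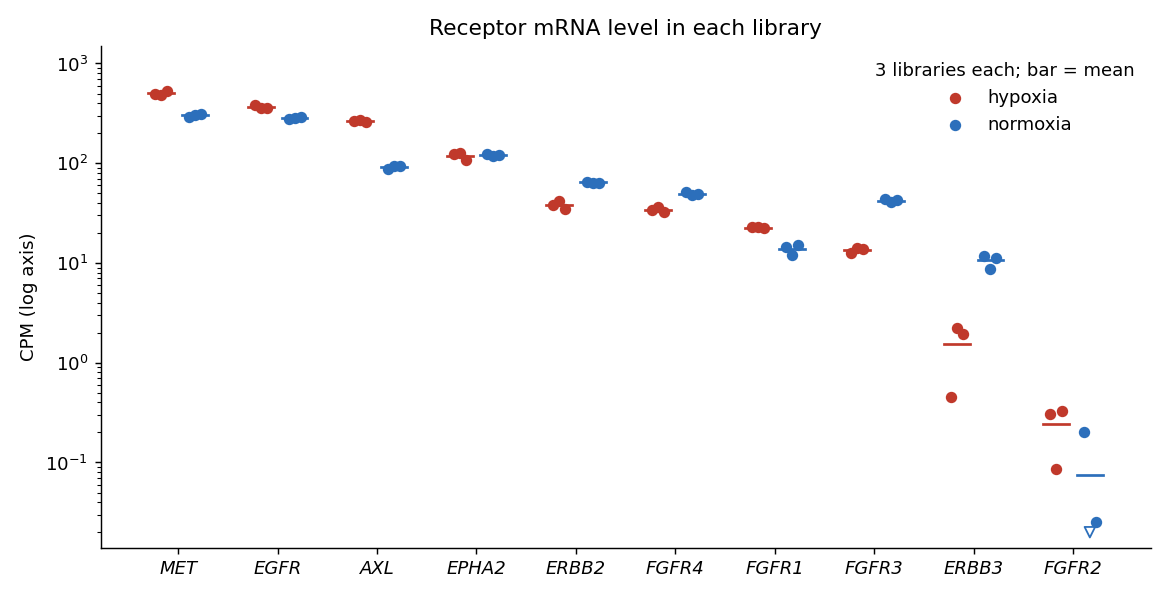
CPM of each receptor in each library on a log axis, with hypoxia (red) left of normoxia (blue) and a bar at the mean of 3 libraries. The open triangle marks the normoxia library with 0 FGFR2 counts. The points of both groups overlap for EPHA2 and FGFR2, and are apart for the other 8 receptors.

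MET is the receptor for hepatocyte growth factor (HGF). Its gene (ENSG00000105976.14) lies on the plus strand at chr7:116672390-116798386 of GRCh38. MET had 493, 484 and 529 CPM in hypoxia C4 to C6, against 292, 307 and 313 CPM in normoxia C1 to C3. Every hypoxia library was above every normoxia library. The means were 502 ± 23.8 CPM in hypoxia and 304 ± 10.5 CPM in normoxia (SD, n = 3 each), a 1.65-fold rise. The log2 change was 0.72 ± 0.05 (SE), with a 95% interval of 0.62 to 0.83 and adjusted p = 1.43e-07 in edgeR's quasi-likelihood test. Of all genes tested, 24% had a higher log2 change.

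Most MET counts were assigned to 2 transcripts that differ in whether they encode the kinase. MET-202 holds the full coding region and had 82.3%, 83.1% and 84.1% of the gene's counts in hypoxia C4 to C6, against 86.7%, 87.0% and 87.6% in normoxia C1 to C3. MET-204, of 2295 bases, had 13.6%, 13.6% and 13.7% in hypoxia, against 11.6%, 10.3% and 9.64% in normoxia. The shares of both transcripts did not overlap between groups, MET-204 being higher and MET-202 lower in hypoxia. In counts both rose. The log2 change was 1.07 ± 0.06 (SE) for MET-204 and 0.62 ± 0.06 for MET-202, with adjusted p = 0.000125 and 0.000782 in edgeR's test per transcript. MET-204 skips an exon of 100 bases and then ends in an exon of 31 bases at chr7:116763050-116763080. The 10 exons of MET-202 that lie beyond it, which include those for the kinase domain, are absent. The skipped exon is shown here from the GENCODE transcripts, since it separates these transcripts. Lower case marks the 100 bases of MET-202, and capitals the 54 bases by which MET-201, a minor transcript with 0.855% to 2.93% of the counts in hypoxia and 0.392% to 1.63% in normoxia, begins the same exon earlier.
MET exon, chr7:116759337-116759490 (GRCh38, plus strand): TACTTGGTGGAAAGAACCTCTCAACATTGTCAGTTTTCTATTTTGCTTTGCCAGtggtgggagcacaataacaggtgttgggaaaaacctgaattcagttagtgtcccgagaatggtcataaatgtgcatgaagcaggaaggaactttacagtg
The deposited length of MET-202 differs by 187 bases from that in GENCODE 29, that of MET-201 by 2244 bases, and that of MET-204 is the same. Division of reads between transcripts is an estimate made by RSEM.

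AXL, a receptor of the TAM family that binds the vitamin K-dependent ligand GAS6, rose most among the receptors. Its gene (ENSG00000167601.11) is at chr19:41219203-41261766 on the plus strand. AXL had 266, 270.3 and 259 CPM in hypoxia C4 to C6, against 88.4, 93.03 and 93.7 CPM in normoxia C1 to C3. The groups were far apart and each was tight. Means were 265 ± 5.87 CPM in hypoxia and 91.7 ± 2.92 CPM in normoxia (SD, n = 3 each), a 2.89-fold rise. Its log2 change of 1.53 ± 0.04 (SE) had adjusted p = 2.43e-10 in edgeR's test, and 10.4% of all genes tested had a higher one. Of the other TAM receptors, TYRO3 fell to 25.8 ± 0.162 CPM in hypoxia, against 43.8 ± 0.926 CPM in normoxia, and MERTK was below the filter. The ligand GAS6 averaged 2.14 CPM in hypoxia and 1.62 CPM in normoxia and did not pass the test.

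The AXL counts were divided among 3 protein-coding transcripts, and all 3 rose. AXL-201, the longest, had 52.7%, 45.5% and 53.2% of the gene's counts in hypoxia C4 to C6, against 57.8%, 66.0% and 70.9% in normoxia C1 to C3. AXL-203 had 18.9%, 23.3% and 23.0% in hypoxia, against 15.6%, 16.2% and 3.74% in normoxia. The share of AXL-201 was lower in each hypoxia library than in any normoxia library, and that of AXL-203 was higher. Normoxia C3 stood apart with its low share of AXL-203. AXL-202 had 28.2%, 31.0% and 23.4% in hypoxia, against 25.9%, 17.5% and 25% in normoxia, and these ranges overlapped. The log2 changes were 1.13 ± 0.12 (SE) for AXL-201, 1.78 ± 0.18 for AXL-202 and 2.39 ± 0.51 for AXL-203. AXL-202 lacks an exon of 27 bases that AXL-201 and AXL-203 carry, a known alternative exon in the extracellular part. It is shown because it is the only exon of AXL-201 that AXL-202 lacks, and capitals mark the whole exon.
AXL exon, chr19:41239694-41239720 (GRCh38, plus strand): GGCAAGCACAGCCAGTCCACCAGCTGG

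AXL-203 begins downstream of the others, at position 41226755, where RefSeq also lists an AXL start. The 250 bases before that start are shown because AXL-203 was the AXL transcript with the highest log2 change. That place is uncertain, since 2.39 ± 0.51 (SE) for AXL-203 is not clearly above 1.78 ± 0.18 for AXL-202. They held 4 places with the letters ACGTG or GCGTG, the core that hypoxia-inducible factors are known to bind, read on both strands (CACGT and CACGC on the printed strand). Capitals mark these places, and a CACGTG would count on both strands.
AXL, chr19:41226505-41226754 (GRCh38.p14, plus strand, RefSeq): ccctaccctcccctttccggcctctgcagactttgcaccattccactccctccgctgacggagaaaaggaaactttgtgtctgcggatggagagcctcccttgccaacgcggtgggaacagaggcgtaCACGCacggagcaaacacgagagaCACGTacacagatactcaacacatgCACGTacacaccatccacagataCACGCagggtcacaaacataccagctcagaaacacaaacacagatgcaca
As many places or more were found in 3.22% of the 35116 windows of the RefSeq table, and at least 1 in 43.2%. The window before the first AXL start held 0. Windows were listed for 8 of the 10 receptors. Of their 15 windows, 8 held at least 1 place, among them 3 places for FGFR3, which fell, and 1 for MET, which rose. A match of letters is a description and no sign of binding.

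**Figure D2:**
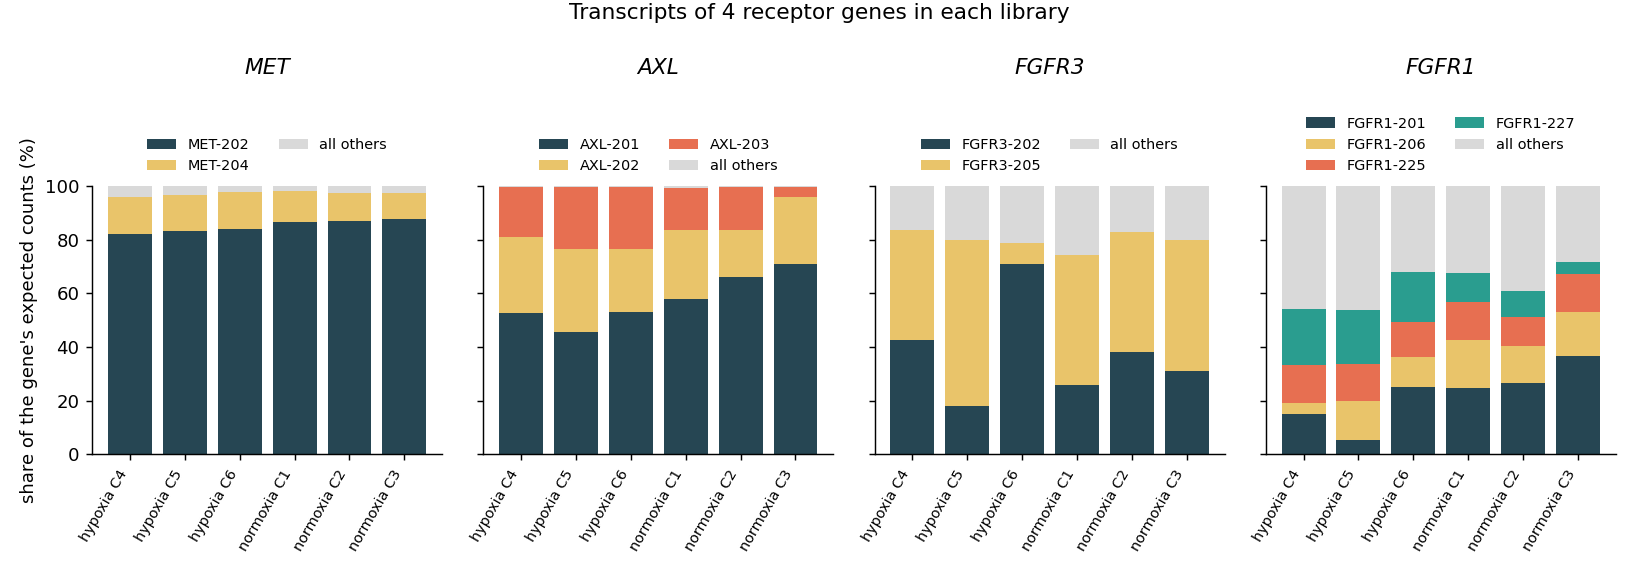
Share of each gene's expected counts (percent) assigned to its main transcripts in each library, hypoxia C4 to C6 left of normoxia C1 to C3, for MET, AXL, FGFR3 and FGFR1. Grey is the sum of all other transcripts. MET-204 and AXL-203 take more in hypoxia, and the FGFR3 transcripts vary widely among the hypoxia libraries, with FGFR3-205 at 8% in C6 and 61.9% in C5.

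EGFR binds EGF, TGF-alpha, amphiregulin and related ligands, and forms dimers with itself or with ERBB2 and ERBB3. Its gene (ENSG00000146648.17) is at chr7:55019021-55211628 on the plus strand. EGFR had 385, 361 and 355 CPM in hypoxia C4 to C6, against 275, 281 and 293 CPM in normoxia C1 to C3. The ranges were apart, and the rise was the smallest of the 4 risen receptors. Means were 367 ± 15.9 CPM in hypoxia and 283 ± 8.93 CPM in normoxia (SD, n = 3 each). The log2 change was 0.38 ± 0.04 (SE), 1.30-fold, with adjusted p = 2.11e-05 in edgeR's test. Tested by its most abundant transcript alone, EGFR did not pass (adjusted p = 0.0801). The antisense gene EGFR-AS1 shares 186 exonic bases with EGFR on the other strand and had 28, 47 and 35 counts in hypoxia against 7, 0 and 0 in normoxia. Beside the 11850 to 13725 EGFR counts in hypoxia, those are few. EGFR-205 held 40.4% to 64.3% of the counts in hypoxia and 51.4% to 67.7% in normoxia, and neither it nor EGFR-201 passed the test per transcript. The deposited length of EGFR-205 is 9700 bases, against 691 in GENCODE 29, so its structure is not described. The minor noncoding transcript EGFR-208 rose, with a log2 change of 1.00 ± 0.10 (SE), to shares of 5.08% to 5.68% in hypoxia, against 3.17% to 3.50% in normoxia.

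The ERBB partners of EGFR moved the other way. ERBB2 has no known ligand of its own and is the preferred dimer partner of the family. Its gene (ENSG00000141736.13) is at chr17:39687914-39730426 on the plus strand. ERBB2 had 38.01, 41.5 and 34.8 CPM in hypoxia C4 to C6, against 65.2, 63.4 and 64.1 CPM in normoxia C1 to C3. All hypoxia libraries lay below the normoxia libraries. ERBB2 fell by 0.75 on the log2 scale (SE 0.06), 1.69-fold lower at 38.1 ± 3.36 CPM in hypoxia, against 64.2 ± 0.919 CPM in normoxia, with adjusted p = 1.24e-06 in edgeR's test. Like EGFR, it did not pass when represented by its most abundant transcript (log2 change -0.77, adjusted p = 0.0608). Among its transcripts of 10% or more of the counts, ERBB2-203 and ERBB2-218 fell, with log2 changes of -0.87 and -1.26, and ERBB2-201 and ERBB2-202 did not pass. MIEN1, which shares 571 exonic bases with ERBB2 on the other strand, had 603, 615 and 491 counts in hypoxia against 985, 981 and 893 in normoxia. Whether the authors' counting used the strand is not given in the sources used here, and the part of the overlap was not tested.

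ERBB3 binds neuregulins, has an impaired kinase and feeds PI3K through ERBB2 or MET. Its gene (ENSG00000065361.15) is at chr12:56076799-56103505 on the plus strand. ERBB3 had 0.449, 2.25 and 1.95 CPM in hypoxia C4 to C6, against 11.8, 8.72 and 11.3 CPM in normoxia C1 to C3. The values in hypoxia rest on about 16, 78 and 65 counts, and C4 was the lowest library. ERBB3 fell by 2.78 on the log2 scale (SE 0.36, 95% interval -3.57 to -1.99), 6.87-fold lower in hypoxia, with adjusted p = 3.85e-05 in edgeR's test. Of all genes tested, 0.586% had a lower log2 change. Without hypoxia C4 it fell by 2.34 (SE 0.18). Its main transcript ERBB3-201 held 84.7% to 88.0% of its counts in normoxia and had 0 counts in hypoxia C4. ERBB3-201 did not pass edgeR's test per transcript (log2 change -2.975, SE 1.096, adjusted p = 0.0931). When each gene was represented by its most abundant transcript, for ERBB3 again ERBB3-201, the same counts passed (log2 change -2.92, adjusted p = 0.0147 in edgeR's test). The call of ERBB3-201 thus hangs on which rows are tested together, and the second test is no separate support. ERBB4, the remaining family member, was below the filter in both groups.

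**Figure D3:**
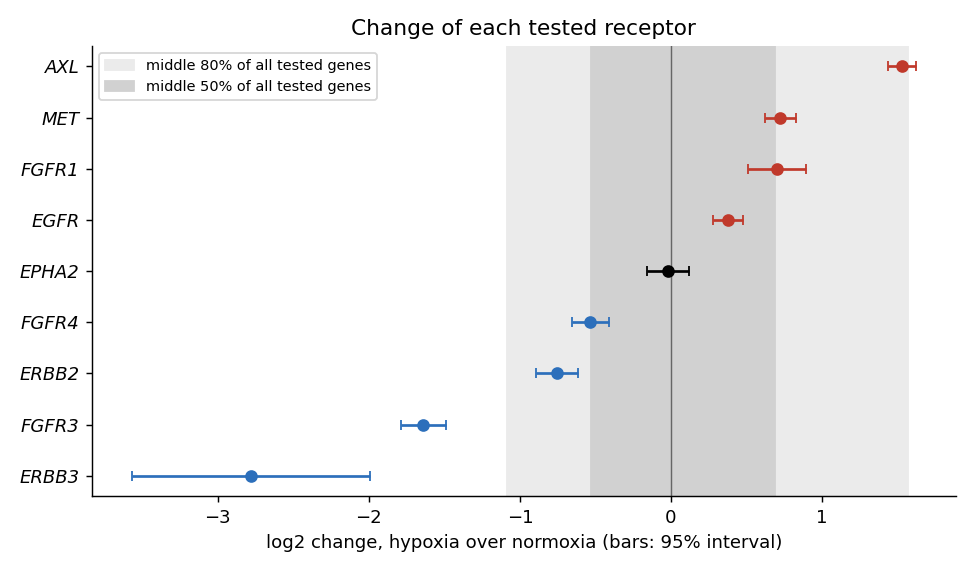
Log2 change (hypoxia over normoxia) of the 9 tested receptors from edgeR's quasi-likelihood fit, with 95% intervals. Red receptors rose, blue ones fell and EPHA2 (black) did not pass. Grey bands hold the middle 50% and 80% of all genes tested, and ERBB3 and FGFR3 lie below both, while AXL lies near the upper edge of the wider one.

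The FGF receptors split. FGFR1 and FGFR3, which bind paracrine FGFs such as FGF2, changed in opposite directions, and FGFR4, the receptor of the hormone FGF19, fell. FGFR1 (ENSG00000077782.20, chr8:38400215-38468834, minus strand) had 22.7, 22.8 and 22.4 CPM in hypoxia C4 to C6, against 14.5, 12.1 and 15.2 CPM in normoxia C1 to C3. Its hypoxia libraries were nearly equal and above all normoxia libraries. The means of 22.7 ± 0.204 CPM in hypoxia and 13.9 ± 1.6 CPM in normoxia (SD, n = 3 each) gave a 1.63-fold rise, a log2 change of 0.70 ± 0.09 (SE) with adjusted p = 2.93e-05 in edgeR's test.

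Many FGFR1 counts were assigned to transcripts annotated in GENCODE 29 with a retained intron. Their share was 42.5%, 36.9% and 39.1% in hypoxia C4 to C6, against 32.2%, 31.0% and 26.1% in normoxia C1 to C3, and the ranges did not overlap. One of them, FGFR1-225, with 13.2% to 14.1% in hypoxia and 11% to 14.4% in normoxia, has a deposited length of 4028 bases against 486 in GENCODE 29, so its structure is not described. Without it the share was 23.1% to 28.4% in hypoxia and 11.8% to 19.9% in normoxia. The main one, FGFR1-227, rose with a log2 change of 1.96 ± 0.33 (SE), adjusted p = 0.00667, and held 20.8%, 20.0% and 18.8% in hypoxia, against 10.8%, 9.76% and 4.36% in normoxia. The higher summed share rested on FGFR1-227 and was not shared by the whole class. FGFR1-217, the next in size, had a lower share in hypoxia, at 2.3% to 4.36%, against 4.57% to 7.75% in normoxia. Its test did not pass. The summed share was not computed over all genes. The protein-coding transcripts FGFR1-201 and FGFR1-206 did not pass. Summed over protein-coding transcripts alone, FGFR1 still rose, with a log2 change of 0.65 ± 0.12 (SE) and adjusted p = 0.00093. Its most abundant transcript alone did not pass, with a log2 change of -0.25 and adjusted p = 0.671. LETM2 shares 138 exonic bases with FGFR1 on the other strand and had 42 to 47 counts in hypoxia and 83 to 90 in normoxia.

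FGFR3 (ENSG00000068078.18, chr4:1793293-1808872, plus strand) had 12.5, 14.2 and 14.0 CPM in hypoxia C4 to C6, against 43.7, 40.7 and 42.6 CPM in normoxia C1 to C3. The groups were well apart. FGFR3 fell by 1.64 on the log2 scale (SE 0.07), 3.12-fold lower at 13.6 ± 0.898 CPM in hypoxia, against 42.3 ± 1.52 CPM in normoxia, with adjusted p = 4.25e-09 in edgeR's test. Of all genes tested, 3.73% had a lower log2 change.

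Its main transcripts carry alternative exons for the last part of the membrane-proximal immunoglobulin domain, which is known to set ligand choice. FGFR3-202 has the IIIb exon and FGFR3-205 the IIIc exon. FGFR3-202 held 42.5%, 17.9% and 70.8% of the FGFR3 counts in hypoxia C4 to C6, against 25.9%, 38.1% and 31.0% in normoxia C1 to C3. FGFR3-205 held 41.1%, 61.9% and 8.0% in hypoxia, against 48.4%, 44.7% and 48.8% in normoxia. Shares in hypoxia varied so widely that no change of either share can be read. Neither transcript passed the test, with log2 changes of -1.21 ± 0.47 (SE) for FGFR3-202 and -2.03 ± 0.65 for FGFR3-205. The exons are printed to show how far they differ, with capitals for bases that differ or stay unpaired in a global alignment of both. They shared 78 of 160 aligned columns (48.8%).
FGFR3-202 exon, chr4:1802914-1803064 (GRCh38, plus strand): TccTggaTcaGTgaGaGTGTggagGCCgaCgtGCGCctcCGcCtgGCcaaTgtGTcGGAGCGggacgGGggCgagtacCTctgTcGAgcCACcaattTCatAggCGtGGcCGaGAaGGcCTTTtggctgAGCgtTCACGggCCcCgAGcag
FGFR3-205 exon, chr4:1803692-1803836 (GRCh38, plus strand): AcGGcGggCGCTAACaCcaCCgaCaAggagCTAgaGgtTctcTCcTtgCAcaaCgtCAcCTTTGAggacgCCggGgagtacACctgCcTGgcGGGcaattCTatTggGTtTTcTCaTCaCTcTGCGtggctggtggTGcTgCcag

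FGFR4 (ENSG00000160867.14, chr5:177086886-177098144, plus strand) had 33.6, 36.2 and 32.4 CPM in hypoxia C4 to C6, against 51.1, 48.2 and 48.7 CPM in normoxia C1 to C3. The ranges were apart. It fell by 0.53 on the log2 scale (SE 0.06), 1.45-fold lower in hypoxia, with adjusted p = 8.15e-06 in edgeR's test. Of its main transcripts FGFR4-201 fell, with a log2 change of -0.81 ± 0.15 (SE), and FGFR4-207 did not pass. Its co-receptor KLB was below the filter and KL had 0 counts in all libraries. FGFR2 (ENSG00000066468.22, chr10:121478334-121598458, minus strand) was close to absent, at 0.309, 0.0864 and 0.329 CPM in hypoxia C4 to C6, against 0.201, 0 and 0.0255 CPM in normoxia C1 to C3. These values rest on 11 counts or fewer per library, and 3 counts per library, the limit that a count of 0 allows, stand for 0.0842 to 0.0898 CPM in hypoxia and 0.0750 to 0.0765 CPM in normoxia. The groups overlapped. FGFR2 failed the filter with all libraries in the fit. Without the filter it did not pass (log2 change 1.61, adjusted p = 0.123). Without normoxia C1, its highest normoxia library, it entered edgeR's test and passed (log2 change 3.92, adjusted p = 0.0123). That fit left 0 and 1 counts in normoxia, with entry through hypoxia. It also entered without hypoxia C5, normoxia C2 or normoxia C3 and did not pass there (adjusted p = 0.0766, 0.301 and 0.294).

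EPHA2 is a receptor for A-type ephrins, ligands held on neighbouring cells. Its gene (ENSG00000142627.12) is at chr1:16124337-16156087 on the minus strand. EPHA2 had 124, 128 and 107 CPM in hypoxia C4 to C6, against 123, 118 and 121 CPM in normoxia C1 to C3. The groups overlapped, and C6 was the lowest library. Means were 119 ± 11.2 CPM in hypoxia and 121 ± 2.37 CPM in normoxia (SD, n = 3 each). The log2 change was -0.02 ± 0.06 (SE), adjusted p = 0.812, with a 95% interval of -0.16 to 0.12. With library totals in place of TMM factors, which moved the median of all genes to -0.13, EPHA2 was called lower (log2 change -0.17, adjusted p = 0.031). Nearly all of its counts, 97.9% to 98.5% in hypoxia and 97.8% to 98.5% in normoxia, belonged to the transcript EPHA2-201. Its ligand EFNA1 rose 4.65-fold, to 300.4 ± 8.53 CPM in hypoxia, against 64.7 ± 0.977 CPM in normoxia.

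Over all 10 genes, 59 of 166 transcripts passed the filter. Of these, 10 rose, 6 fell and 43 did not pass, against 29.5% of all 74527 transcripts tested that passed. In 22 transcripts that held 10% or more of their gene in a group, 6 rose, 3 fell, 12 did not pass and 1 was not tested. The shares of 5 of them did not overlap between groups, namely MET-202, MET-204, AXL-201, AXL-203 and FGFR1-227. The same held for 37.4% of 18183 such transcripts of all genes with at least 2 of them. Only EPHA2 among these receptors had only 1.

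Per transcript length, in FPKM (counts per kilobase of transcript and 1000000 counts, computed from the expected counts and deposited lengths and summed per gene), MET was the highest of the 10 in both groups at the deposited lengths. It stood at 89.9 ± 4.94 FPKM in hypoxia and 57.6 ± 0.817 FPKM in normoxia (SD, n = 3 each). AXL came next in hypoxia with 65.8 ± 1.98 FPKM, and in normoxia, at 23.3 ± 0.529 FPKM, stood below EGFR and EPHA2. EGFR had 46.6 ± 2.21 FPKM in hypoxia and 36.7 ± 1.14 FPKM in normoxia. EPHA2 followed, then FGFR4, ERBB2, FGFR1, FGFR3, ERBB3 and FGFR2 in hypoxia, and no neighbours in that order overlapped. In normoxia the order was MET, EGFR, EPHA2, AXL, FGFR4, ERBB2, FGFR3, FGFR1, ERBB3 and FGFR2. There FGFR4 and ERBB2 overlapped, at 19.5 ± 1.07 and 19.0 ± 0.757 FPKM, and no other neighbours did. EPHA2 had 29.1 ± 3.01 FPKM in hypoxia and 33.0 ± 0.719 FPKM in normoxia, and these ranges, unlike those in CPM, did not overlap. FPKM carry no TMM scaling, so they are used here for the order of genes and not for their change. The order rests on the lengths, above all on that of EGFR-205. With the lengths of GENCODE 29, EGFR would be the highest in both groups, at 323 ± 46 FPKM in hypoxia and 267 ± 31.1 FPKM in normoxia. MET would be the next, at 92 ± 4.83 FPKM in hypoxia and 58.9 ± 1.0 FPKM in normoxia. The EGFR values divide counts assigned to EGFR-205 at its deposited 9700 bases by the 691 bases of GENCODE 29. They thus mix annotations, show only how much hangs on that length, and are no estimate of the EGFR level.

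Ratios of FPKM within a library do not depend on scaling, but do on the lengths. At the deposited lengths AXL over EGFR was 1.35, 1.45 and 1.44 in hypoxia C4 to C6, against 0.63, 0.669 and 0.605 in normoxia C1 to C3, above 1 in all hypoxia libraries and below it in all normoxia libraries. With GENCODE 29 lengths, applied to counts assigned at the deposited lengths, that crossing was lost. AXL over EGFR was then 0.185 to 0.243 in hypoxia and 0.0776 to 0.0974 in normoxia, still higher in each hypoxia library. Because the EGFR values so obtained mix annotations, they do not decide whether the crossing holds. FGFR1 over FGFR3 was 2.31, 1.93 and 1.94 in hypoxia, against 0.28, 0.321 and 0.388 in normoxia, likewise on either side of 1, and stayed so with GENCODE 29 lengths, at 3.13 to 3.77 in hypoxia and 0.521 to 0.693 in normoxia. At the deposited lengths MET, EGFR and AXL together held 74.9% to 77.1% of the 10 receptors' FPKM in hypoxia, against 55.2% to 57.5% in normoxia. The 4 FGF receptors held 8.66% to 9.12% in hypoxia and 16.3% to 18.2% in normoxia. Among 58 listed receptor tyrosine kinases, on the same lengths, MET ranked 1 in both groups. AXL ranked 2 in hypoxia and 7 in normoxia, FGFR1 ranked 12 in hypoxia and 17 in normoxia, and FGFR3 ranked 17 in hypoxia and 12 in normoxia.

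**Figure D4:**
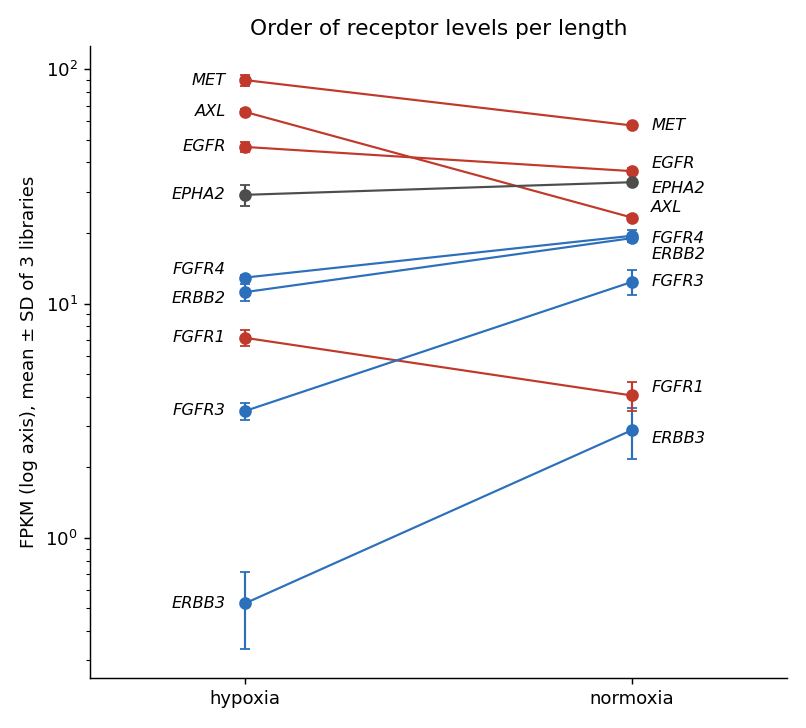
Mean FPKM at the deposited transcript lengths of 9 receptors in hypoxia (left) and normoxia (right) on a log axis, with the SD of 3 libraries as bars; FGFR2, near 0, is left out. Red lines are higher in hypoxia, blue ones lower, and EPHA2 is grey. The lines of AXL and EGFR cross, which is lost when GENCODE 29 lengths divide counts assigned at the deposited lengths. Those of FGFR1 and FGFR3 cross with either.

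The protein-coding gene whose profile over the 6 libraries lay nearest was sought for each receptor of 10 CPM or more in a group, among 9628 genes. Likeness is the Euclidean distance between log2(CPM + 0.5) values, each gene centred on its own mean. FGFR4 lay nearest to ANKS3 (distance 0.0468), EPHA2 to CEP170B (0.0514), ERBB2 to RUBCN (0.0517), MET to PPFIBP1 (0.0537), EGFR to PSENEN (0.055) and AXL to ZFP36L1 (0.0664). FGFR3 lay nearest to ABCA3 (0.097) and FGFR1 to PLAG1 (0.13). ERBB3 had no close match, its nearest being CC2D2A at 0.695. The log2 change of PPFIBP1 was 0.76 beside 0.72 for MET, and that of ZFP36L1 was 1.55 beside 1.53 for AXL. Such closeness follows from the choice by profile and is no separate result.

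Among the other receptor tyrosine kinases more rose than fell. Of 48 listed, 25 were tested, and 16 rose, 6 fell and 3 did not pass. That is 88.0% called, against 72.8% of all genes. Some members with few counts in normoxia, TEK and FLT4 among them, entered the test only through hypoxia. Such genes could be called risen but not fallen. With a filter of 1 CPM in 3 libraries 11 rose and 6 fell. The list's median log2 change was 0.33, against 0.03 over all genes, and 0.11 to 0.80 under the alternatives. CSF1R, the receptor of a macrophage growth factor, rose 12.7-fold, to 4.85 ± 0.377 CPM in hypoxia, against 0.378 ± 0.263 CPM in normoxia. FLT4, a VEGF-C receptor, rose 10.9-fold to 1.31 CPM in hypoxia, against 0.118 CPM in normoxia, and the ephrin-B receptor EPHB2 rose 3.07-fold. At these low levels the size hangs on the method, with log2 changes of 1.17 to 4.39 for CSF1R, 0.44 to 3.84 for FLT4 and 0.24 to 2.74 for EPHB2 under the alternatives, the lowest with limma on log2(FPKM + 1). ROR1 fell 2.18-fold (log2 changes of -1.28 to -0.31 under the alternatives) and the collagen receptor DDR2 1.53-fold. TEK, the angiopoietin receptor, had 0 counts in normoxia and was at least 4.45-fold higher in hypoxia, at only 0.337 CPM. In the endothelial list PECAM1 and TEK rose, CDH5 and VWF fell, with log2 changes of -4.33 and -1.36, and KDR was at 0. In the blood list CD68 rose, LYZ did not pass and CD14 was below the filter. The part of such cells in these rises was not tested.

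Ligands of these receptors and of their families changed in both directions. HGF had 0 counts in all 6 libraries, which allows up to 0.0842 to 0.0898 CPM per library in hypoxia and 0.0750 to 0.0765 CPM in normoxia. Of 37 listed ligands 15 were tested, and 7 rose, 5 fell and 3 did not pass. That is 80% called, against 72.8% of all genes. The balance was not stable, with 5 rising and 5 falling with library totals, without hypoxia C4 or without normoxia C1, and 4 rising and 5 falling with limma. The list's median log2 change was 0.28, and 0.031 without hypoxia C4, 0.07 without C5, 0.182 without C6, 0.092 without normoxia C3 and 0.012 over protein-coding transcripts. NRG4, a neuregulin that binds ERBB4, rose 6.15-fold to 40.0 ± 2.25 CPM in hypoxia, against 6.51 ± 0.146 CPM in normoxia. The ephrin EFNA3 rose 4.09-fold. Epigen (EPGN), an EGFR ligand, fell 4.18-fold to 29.3 ± 2.92 CPM in hypoxia, against 122 ± 9.84 CPM in normoxia. FGF2 fell 2.02-fold to 31.3 ± 3.78 CPM in hypoxia, against 63.2 ± 1.8 CPM in normoxia, and FGF18 fell 5.33-fold to 0.251 CPM in hypoxia, against 1.35 CPM in normoxia (log2 changes of -3.05, without hypoxia C5, to -0.59 under the alternatives).

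Among 14 tested of 17 genes for ligand processing and co-receptors, 8 rose, 2 fell and 4 did not pass, so that 71.4% were called, against 72.8% of all genes. The list's median log2 change was 0.67, and 0.345 to 0.752 under the alternatives. FGFRL1, an FGF receptor without a kinase, rose 2.25-fold to 129.9 ± 10.2 CPM in hypoxia, against 57.6 ± 2.31 CPM in normoxia. The heparan sulfate carrier SDC4 rose 1.91-fold, and ADAM17, the protease that sheds EGFR ligands, rose 1.75-fold. Another syndecan, SDC1, fell 1.92-fold. CD44, a co-receptor of MET, fell 1.23-fold.

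In the shared signalling chain below the receptors, called members rose by up to 2.71-fold and fell by up to 1.35-fold. Of 29 adaptors and proximal kinases 28 were tested, and 13 rose, 7 fell and 8 did not pass. That is 71.4% called, against 72.8% of all genes. The list's median log2 change was 0.14. Balance and sign depended on the scaling, since with library totals 7 rose and 11 fell, with a median of -0.015. CRKL, an adaptor, rose 2.71-fold to 351 ± 8.54 CPM in hypoxia, against 129 ± 1.91 CPM in normoxia. MAP2K1, which encodes the kinase MEK1, rose 2.61-fold and the RAS activator SOS1 1.64-fold. The adaptor CRK fell 1.35-fold, the PI3K subunit PIK3CA 1.33-fold and the phosphatase PTPN11 1.28-fold.

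The highest rise among the receptor pathway genes with counts in every library was that of ERRFI1, a negative regulator. Of 19 listed 18 were tested, and 11 rose, 5 fell and 2 did not pass. That is 88.9% called, against 72.8% of all genes. The list's median log2 change was 0.42, and 0.163 to 0.48 under the alternatives. ERRFI1 (MIG6), which binds and blocks the kinase of EGFR and ERBB2, had 571, 548 and 565 CPM in hypoxia C4 to C6, against 18.9, 18.5 and 21.3 CPM in normoxia C1 to C3. That is a 28.7-fold rise, a log2 change of 4.84 ± 0.06 (SE) with adjusted p = 2.09e-12 in edgeR's test. SPRY1, an inhibitor of FGF signalling to ERK, rose 4.71-fold to 42.0 ± 3.58 CPM in hypoxia, against 8.90 ± 1.68 CPM in normoxia, while its relative SPRY2 fell 1.504-fold. The ubiquitin ligase CBLB rose 2.11-fold. LRIG1, which drives ERBB receptors to degradation, had 0 counts in normoxia and was at least 5.22-fold higher in hypoxia, at only 0.395 ± 0.132 CPM. It entered the test only through hypoxia, so it could not be called fallen. LRIG3, at higher levels, fell 3.72-fold to 5.77 ± 0.414 CPM in hypoxia, against 21.5 ± 1.22 CPM in normoxia. RNF41, a ubiquitin ligase for ERBB3, fell 1.61-fold.

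Genes known to be switched on by ERK did not move as one. Of 12 listed 11 were tested, and 5 rose, 2 fell and 4 did not pass. That is 63.6% called, against 72.8% of all genes. The list's median log2 change was 0.13, and 0.077 without hypoxia C4, 0.221 without hypoxia C6, -0.022 with library totals and 0.992 with a filter of 1 CPM. FOS rose 13.9-fold to 115 ± 4.3 CPM in hypoxia, against 8.30 ± 0.107 CPM in normoxia. IER3 rose 9.85-fold and FOSL1 5.53-fold. Cyclin D1 (CCND1) fell 2.32-fold to 77.5 ± 1.68 CPM in hypoxia, against 179.9 ± 3.76 CPM in normoxia, and the ERK phosphatase DUSP4 fell 1.37-fold.

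**Figure D5:**
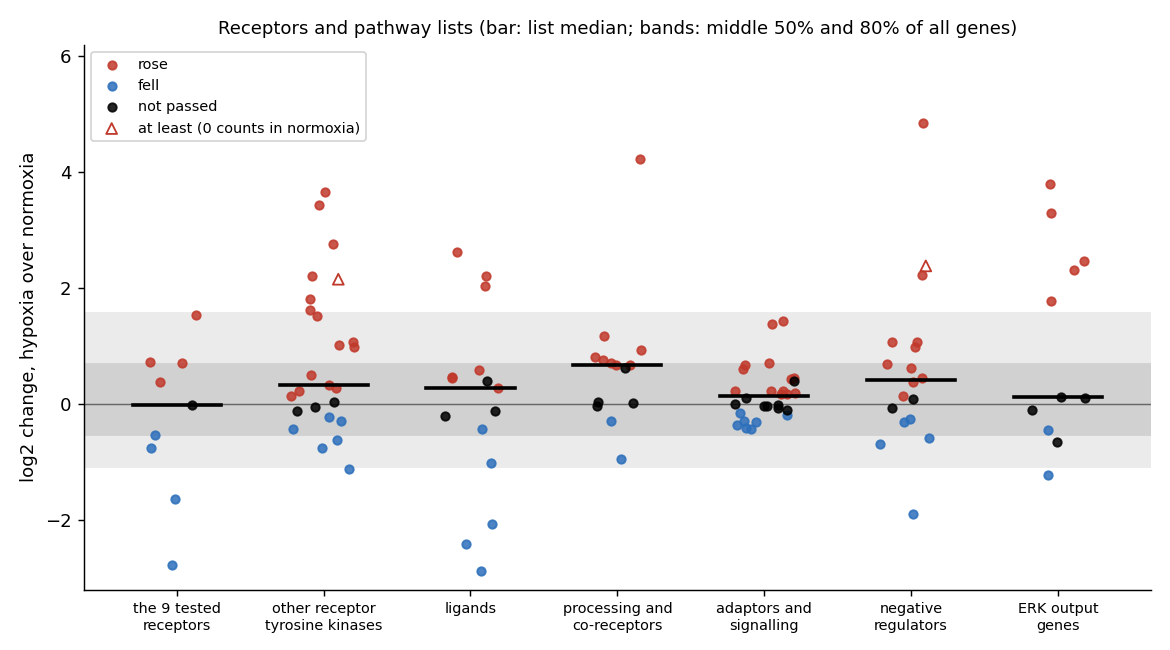
Log2 change (hypoxia over normoxia) of each tested member of the receptor list and the pathway lists, coloured by its call in edgeR's test, with a bar at each list's median. Open triangles are lower bounds for TEK and LRIG1, which had 0 counts in normoxia. List medians lie between -0.02 for the 9 receptors and 0.67 for processing and co-receptors, within the band of the middle 50% of all genes.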

How the data were processed

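The authors deposited 1 table of 251062 Ensembl transcripts with a length, and expected counts and FPKM per library, per the file headers. The 6 FPKM columns were left out. Cutadapt, HISAT2 and RSEM with GRCh38 (hg38) are named in the submitters' processing notes, without versions or an annotation release. The deposited expected counts are reads divided among transcripts by estimation. They were summed per gene with GENCODE 29, leaving out 48155 rows without a gene (6.12% to 6.39% of counts), and rounded. Lengths in GENCODE 29 matched for 143 of the 166 receptor transcripts. Genes kept by filterByExpr were scaled by TMM and tested with edgeR 4.0.16 (limma 3.58.1, R 4.3.3), two-sided, with Benjamini-Hochberg adjustment over all genes and a threshold of 0.05. Genes that passed the filter only through the group where they are high could not be called in the other direction. CPM use TMM-scaled library sizes. The SE is the log2 change divided by the root of F. Folds against 0 counts are lower bounds at 3 counts per library, and such floors cover counting error only. Transcripts were tested likewise over the whole table. FPKM were computed from expected counts and deposited lengths, which are not effective lengths, and summed per gene for levels between genes.

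Members and lists were chosen with earlier results of these data known. Named genes are the receptors, up to 3 risen and 3 fallen members per list with the largest changes (2 of the controls) among called genes of 1 CPM or more without overlap, and the nearest profiles. Named transcripts held 10% or more of their gene. GAS6, MERTK, ERBB4, KLB, KL, HGF, TEK, LRIG1, CD68, KDR, COL1A2, PTPRC, MS4A1, KRT18, PECAM1, CDH5, VWF, LYZ, CD14, the overlapping genes, EGFR-208 and MET-201 were named after their values were seen. The test was tried on simulated data. Alternatives were DESeq2 1.42.0, limma on log2(FPKM + 0.5) and other pseudocounts, other scalings and filters, protein-coding or the most abundant transcripts alone, each library left out and, chosen after seeing the data, GENCODE 29 lengths for FPKM.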

Additional observations from a re-analysis of the deposited data

How the results depend on the processing

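Of 153 repeats of the 9 tested receptors under 17 alternatives each, 144 kept direction and side of the threshold. MET, AXL, ERBB3, FGFR3 and FGFR4 kept both throughout, with log2 changes of 0.57 to 0.84, 1.18 to 1.65, -3.16 to -1.34, -1.97 to -1.56 and -0.75 to -0.42. The most abundant transcripts of ERBB3 and FGFR3, ERBB3-201 and FGFR3-205, did not pass edgeR's test over all transcripts (adjusted p = 0.0931 and 0.0621). Testing the most abundant transcript alone left 5 receptors called (2 risen, 3 fallen), as EGFR (0.38), ERBB2 (-0.77) and FGFR1 (-0.25, reversed) lost the call. The sign of EPHA2, never far from 0, reversed to 0.048 with upper-quartile factors, 0.022 with a filter of 1 CPM, 0.102 over protein-coding transcripts, 0.008 for the most abundant transcript and 0.061 without hypoxia C6. It ran from -0.066 to 0.061 with 1 library left out and from -0.183, with limma on log2(FPKM + 0.1), to 0.102 over all alternatives. With library totals 9 receptors were called, EPHA2 included, and the risen share of all called genes was 41.2%, against 50.1% with TMM. DESeq2 called 27 receptor transcripts (14 risen, 13 fallen), against 16 in edgeR. Causes were not tested. Leaving out 1 library at a time called 8 to 9 receptors and 13 to 18 receptor transcripts. The genes named from the lists by size of change kept their calls under all 17, though not their size at low levels. With GENCODE 29 lengths, an alternative chosen after seeing the data, 5 of the 10 receptors in hypoxia and 8 in normoxia kept their rank by FPKM. Those lengths were applied to counts assigned at the deposited lengths. All 10 kept their rank with TPM, which is no test, since TPM rescale all genes of a library alike and cannot change their order within it. Levels from the deposited FPKM were not run. Counts of ERBB3 and FGFR2 limit their precision. No paired analysis was possible because the table's columns carry no replicate number.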
